A study of Mus musculus with 12 samples.

Results

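Genes that mark the surface layers of the heart were measured in mice that expressed an inhibitory form of a mitochondrial calcium channel and in their wild-type littermates. The epicardial and mesothelial markers are the 8 genes Upk3b, Upk1b, Bnc1, Wt1, Tbx18, Msln, Krt19 and Aldh1a2, of 18193 genes that are named singly on the array. They were chosen by name, by taking each probe set whose annotation gives such a gene and no other. This gave 13 of 45101 probe sets: 4 for Upk1b, 2 each for Upk3b and Tbx18, and 1 each for the other 5 genes. All 13 passed the filter on dim signals, for which the third highest of a probe set's 12 values had to lie above 3.355, the median of all values.

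RNA of whole excised hearts from outbred CD1 mice was read on Affymetrix 3′ expression arrays, and all values below are log2 signals. DN-MCU mice expressed dominant-negative MCU, an altered pore subunit of the uniporter through which calcium enters mitochondria, and WT mice did not. The 4 groups were DN-MCU adults, WT adults, DN-MCU neonates and WT neonates, with 3 arrays each; adults were 42 days old and labelled male, and neonates were 1 day old with no sex in the labels. No other allele or treatment is labelled, and the sources used here do not name the promoter that drives the construct. Each array is labelled as a separate biological replicate, so the p-values below measure the spread between these hearts.

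A layer of mesothelial cells, the epicardium, covers the heart, and the same kind of cell lines the pericardial sac and the pleura beside it. The epicardium arises from the proepicardium, sends cells into the heart wall before birth to form fibroblasts and mural cells, and is a source of retinoic acid and growth factors for the muscle beneath. In adult hearts it is largely quiescent and switches part of its fetal programme back on after injury. A whole heart sample holds little of this layer, and it also holds whatever pericardial tissue was left on the heart when it was cut out. In such bulk RNA, fewer mesothelial cells and less of an mRNA in each of them cannot be told apart.

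The 8 genes fall into 3 kinds by what they encode. Upk3b and Upk1b encode uroplakins, membrane proteins first known from the plaques of bladder epithelium, and Msln encodes mesothelin, a surface glycoprotein of mesothelial cells. Krt19 encodes a keratin of simple epithelia, and Aldh1a2 encodes the dehydrogenase that makes retinoic acid from retinaldehyde. Bnc1 (basonuclin), Wt1 and Tbx18 encode transcription factors, of which Wt1 and Tbx18 are the usual markers of the embryonic epicardium. Tbx18 is also made in the sinus node and in the mural cells of vessels, and Wt1 in some endothelial cells, so neither is confined to the surface layer.

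The RefSeq promoter table, on mouse build GRCm38.p6, held 4 of the 8 genes: Upk3b, Bnc1, Tbx18 and Aldh1a2. The 250 bases before the gene start are shown for 3 of them, because Upk3b and Bnc1 were among the markers whose signals followed each other most closely from heart to heart and Tbx18 was among those that did not. They come from chr5:136038246-136038495 on the plus strand (Upk3b), chr7:81992300-81992549 on the minus strand (Bnc1) and chr9:87731261-87731510 on the minus strand (Tbx18). Capitals mark matches, on either strand, to 5 short motifs: GGAATG of TEAD factors, GATAA of GATA factors, CANNTG (the E-box), GGGCGG of SP1 and CCAAT.
Upk3b: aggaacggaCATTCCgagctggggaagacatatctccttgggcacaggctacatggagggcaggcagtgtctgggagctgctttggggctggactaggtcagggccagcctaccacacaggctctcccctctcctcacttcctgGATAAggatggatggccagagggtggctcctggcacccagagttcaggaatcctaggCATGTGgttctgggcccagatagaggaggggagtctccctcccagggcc
Bnc1: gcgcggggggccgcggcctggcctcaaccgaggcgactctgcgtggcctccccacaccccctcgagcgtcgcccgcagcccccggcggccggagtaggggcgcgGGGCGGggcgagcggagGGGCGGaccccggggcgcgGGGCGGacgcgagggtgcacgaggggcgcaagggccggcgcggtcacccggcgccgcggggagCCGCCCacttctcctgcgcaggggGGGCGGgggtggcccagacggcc
Tbx18: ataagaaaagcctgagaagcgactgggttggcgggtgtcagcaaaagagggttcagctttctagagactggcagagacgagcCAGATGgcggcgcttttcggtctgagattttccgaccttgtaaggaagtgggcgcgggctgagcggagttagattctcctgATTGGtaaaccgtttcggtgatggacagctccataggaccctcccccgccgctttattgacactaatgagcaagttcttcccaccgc

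The Upk3b window held 1 match each to the TEAD, GATA and E-box motifs, which are found in 12.6%, 22.6% and 66.2% of the 32851 windows of the same length. The Bnc1 window held 5 matches to the SP1 motif (32.7% of all windows hold at least 1) and none to the other motifs. The Tbx18 window held 1 E-box and 1 CCAAT match (33.8% of all windows hold CCAAT). The windows also differed in composition, with 2 CpG dinucleotides in that of Upk3b, 39 in that of Bnc1 and 15 in that of Tbx18, against a median of 6 over all windows. The Bnc1 and Upk3b windows shared none of the 5 motifs. The Aldh1a2 window, not shown, held 2 E-box matches and 1 CCAAT match, so it shared the E-box with Upk3b and Tbx18. These matches describe letters in a window and say nothing of factors bound there.

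Array medians ranged from 3.24 to 3.46 and upper quartiles from 6.99 to 7.40. One Mcu probe set read 8.44 to 10.41 in DN-MCU hearts and 2.45 to 4.55 in WT hearts, while the other Mcu probe set read 7.39 to 8.14 in DN-MCU hearts and 7.41 to 8.18 in WT hearts. Adult hearts stood apart from each other in genes of neighbouring tissues. WT adult 1 was high in the markers described here, DN-MCU adult 3 was low in the brown fat gene Ucp1 (at 2.36, against 7.11 to 10.72 in the other adults), and DN-MCU adult 1 was high in thymocyte genes (Rag1 at 9.86, against 2.63 to 4.93). Results that rest on WT adult 1 are therefore given with and without it.

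**Figure D1:**
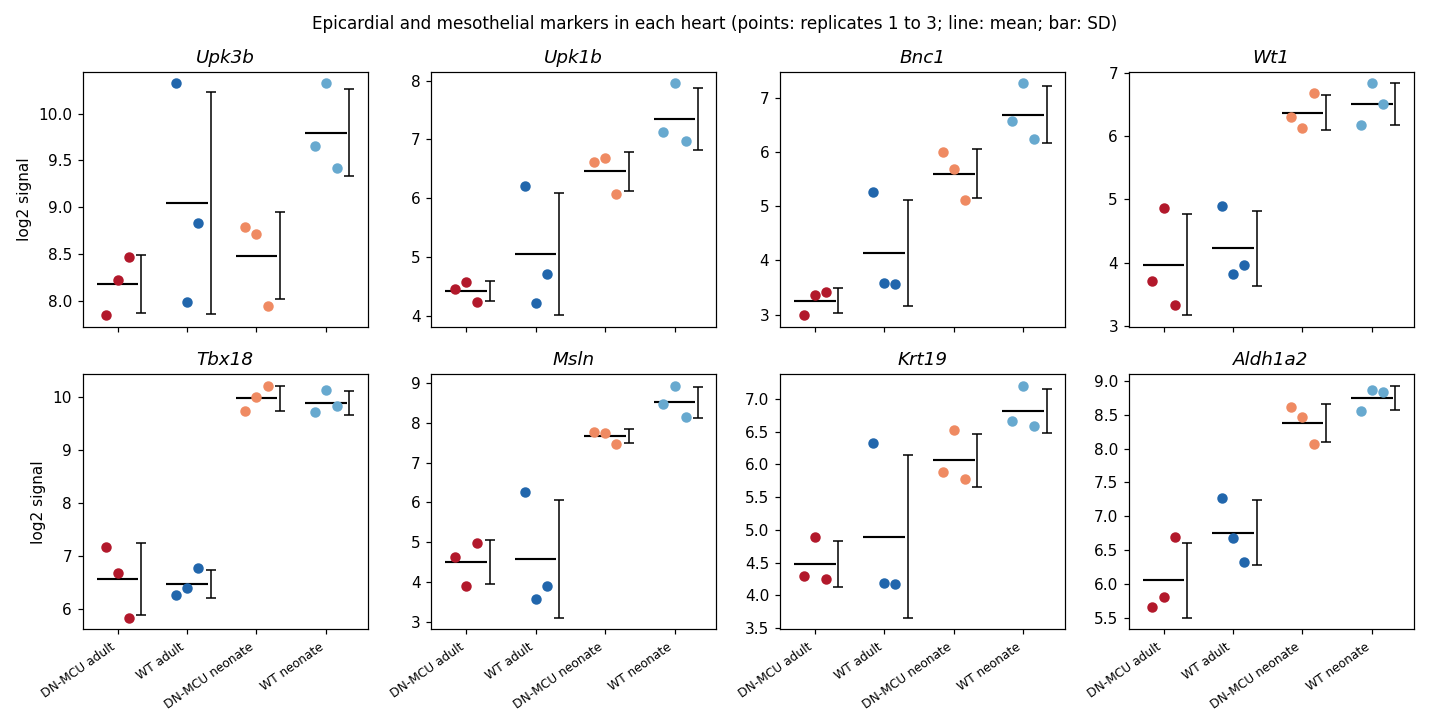
The log2 signal of each of the 8 markers (vertical axis) in the 12 hearts, by group (horizontal axis), with 1 probe set per gene, the one with the highest mean. Points are hearts, lines are means and bars are SD; WT adult 1 is the highest adult point for all genes but Tbx18, and for Wt1, Tbx18, Msln and Aldh1a2 all neonates lie above all adults.

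The plot of the 8 markers by group shows their levels across the study. On the brightest probe set of each gene, the group means of Upk1b, Bnc1, Wt1, Msln, Krt19 and Aldh1a2 were highest in WT neonates, then came DN-MCU neonates, WT adults and DN-MCU adults. For Upk3b the WT adults came before the DN-MCU neonates, and for Tbx18 the DN-MCU mean was above the WT mean at each age. No genotype neighbours in these orders passed the test, and DN-MCU neonates were not tested against WT adults. The first comparison is between ages in WT hearts, which gives the levels in the absence of the construct. Of the 8 genes, 7 were lower in WT adults than in WT neonates, and Upk3b alone did not pass the test. By probe set, 11 of 13 fell, where 24.4% of all 24176 tested probe sets fell. The median over the 13 was -2.27, against -0.07 over all tested probe sets.

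Tbx18 fell on both probe sets. They averaged 6.48 ± 0.27 and 4.65 ± 0.37 in WT adults, against 9.90 ± 0.22 and 8.78 ± 0.16 in WT neonates (SD, n = 3). The differences were -3.42 (SE 0.30, adjusted p = 8.38e-06) and -4.13 (SE 0.27, adjusted p = 9.62e-07), which is 10.7-fold and 17.5-fold lower in adults. Wt1 read 4.90, 3.82 and 3.96 in WT adults and 6.17, 6.83 and 6.50 in WT neonates. The ages did not overlap, and Wt1 was lower in adults by a log2 difference of -2.27 (SE 0.40, adjusted p = 0.000941). Bnc1 read 5.26, 3.58 and 3.56 in WT adults and 6.56, 7.26 and 6.24 in WT neonates. The difference was -2.55 (SE 0.44, adjusted p = 0.000918), and 2 of the 3 WT adults lay close to the filter level of 3.355.

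Among the surface proteins, Msln read 6.27, 3.57 and 3.90 in WT adults and 8.46, 8.92 and 8.15 in WT neonates. It was 15.3-fold lower in adults (log2 difference -3.93, SE 0.59, adjusted p = 0.00033), and the ages did not overlap; without WT adult 1 the difference was -4.78. The 4 Upk1b probe sets all fell, by -2.81 (1435831_at), -2.30, -1.33 (1457065_at) and -1.09 (1439760_x_at), with adjusted p between 0.00179 and 0.0274. Without WT adult 1 the fall of 1435831_at was -3.71. With the replicate number as a block in neonates, Upk1b 1457065_at reached an adjusted p of 0.0507, and 10 of the 13 probe sets passed. Without WT adult 3, WT neonate 1 or WT neonate 2, neither Upk1b 1457065_at nor Upk1b 1439760_x_at passed (adjusted p = 0.0531 to 0.107), and without WT adult 2 Upk1b 1457065_at did not (adjusted p = 0.105). Of the 13 alternatives that measured them, 8 ended the call of Upk1b 1457065_at and 6 that of 1439760_x_at, with adjusted p up to 0.105 and 0.107. Krt19 averaged 4.90 ± 1.24 in WT adults and 6.82 ± 0.34 in WT neonates, a difference of -1.92 (SE 0.51, adjusted p = 0.0103), and of -2.63 without WT adult 1. Aldh1a2 averaged 6.76 ± 0.48 in WT adults and 8.75 ± 0.17 in WT neonates, a difference of -1.99 (SE 0.30, adjusted p = 0.000384).

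Upk3b was the exception. Its brighter probe set read 10.32, 7.99 and 8.83 in WT adults and 9.65, 10.32 and 9.42 in WT neonates. WT adult 1 lay as high as the highest neonate, so the ages overlapped and the difference of -0.75 (SE 0.50) had an adjusted p of 0.254. The other Upk3b probe set gave -1.02 (SE 0.59, adjusted p = 0.185). Without WT adult 1 both passed, at -1.38 (adjusted p = 0.0134) and -1.74 (adjusted p = 0.0118), and all 13 probe sets then fell. The arrays of the ages did not overlap for 10 of the 13, where this held in the same direction for 36.3% of all tested probe sets.

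**Figure D2:**
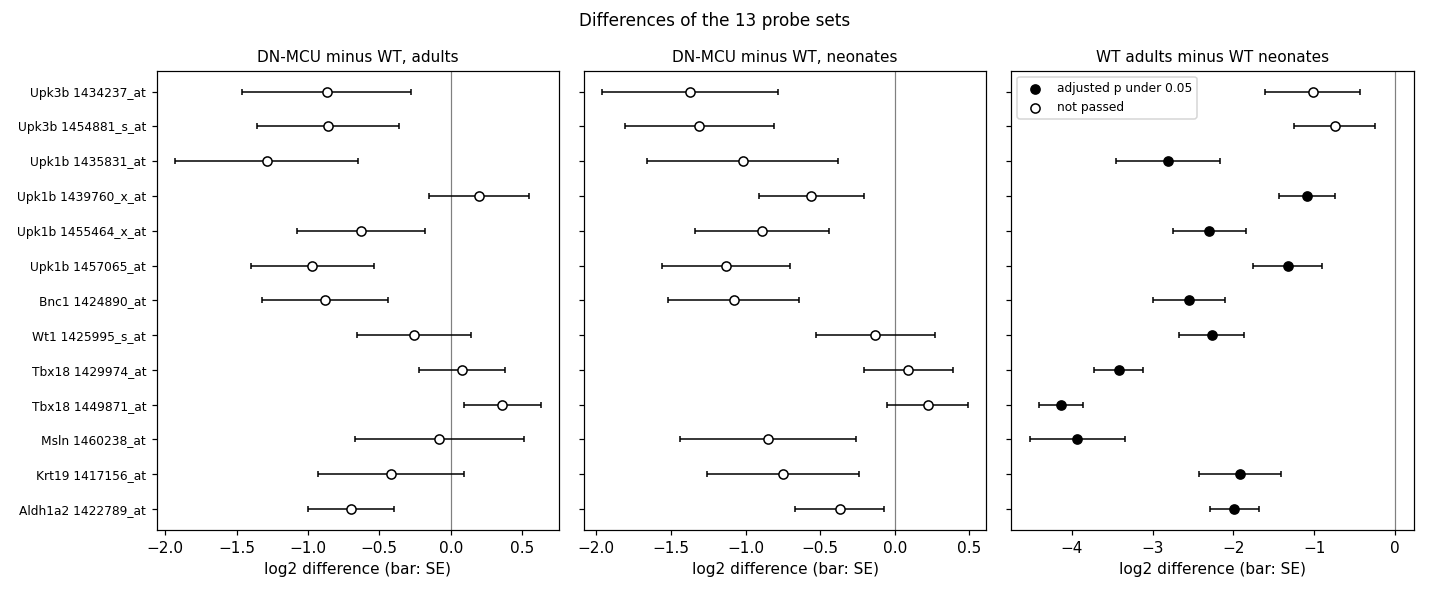
Log2 differences of the 13 probe sets (points) with their SE (bars) for DN-MCU minus WT in adults, DN-MCU minus WT in neonates and WT adults minus WT neonates. Filled points have an adjusted p under 0.05: 0 of 13 for each genotype comparison and 11 of 13 for age.

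The second comparison asks what the construct did within a day of birth. None of the 13 probe sets passed the test between DN-MCU and WT neonates, where 4 of 24176 did over the array (0.0165%). Signals of Upk3b, Upk1b, Bnc1, Msln and Krt19 were nonetheless lower in each of the 3 DN-MCU neonates than in any WT neonate on each gene's brightest probe set, while those of Wt1, Tbx18 and Aldh1a2 overlapped between the genotypes. In all, 8 of 13 probe sets, from 5 of the 8 genes, had no overlap and were lower in DN-MCU neonates, where 5.13% of all tested probe sets were. These are not separate observations, since the 5 genes correlated with each other at r of 0.85 to 0.99 over the same 6 hearts. The median difference was -0.85 over the 13 and 0.01 over all tested probe sets, and 11 of 13 were negative.

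Upk3b had the largest difference of the 8 genes. Its brighter probe set read 8.79, 8.72 and 7.95 in DN-MCU neonates, against 9.65, 10.32 and 9.42 in WT neonates. The genotypes did not overlap. The fitted difference was -1.31 (SE 0.50, unadjusted p = 0.0256, limma), or 2.48-fold lower, with an adjusted p of 1. The other Upk3b probe set read 7.74, 7.64 and 6.80 in DN-MCU neonates and 8.55, 9.29 and 8.48 in WT neonates, a difference of -1.37 (SE 0.59). Both probe sets of the gene thus placed DN-MCU neonate 3 lowest and WT neonate 2 highest.

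Upk1b, the other uroplakin, was lower without overlap on 3 of its 4 probe sets. The brightest read 6.62, 6.68 and 6.07 in DN-MCU neonates and 7.12, 7.95 and 6.97 in WT neonates, a difference of -0.89 (SE 0.45). The other 2 without overlap gave -1.02 (SE 0.64) and -1.13 (SE 0.43). The fourth, 1439760_x_at, gave -0.56 (SE 0.35) with overlapping groups. The suffix of its name, which the brightest (1455464_x_at) also carries, marks probes that can match other transcripts. Msln read 7.77, 7.75 and 7.46 in DN-MCU neonates and 8.46, 8.92 and 8.15 in WT neonates. Its difference was -0.85 (SE 0.59), and its groups did not overlap either.

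The keratin and the enzyme had smaller log2 differences. Krt19 read 5.89, 6.53 and 5.78 in DN-MCU neonates and 6.66, 7.20 and 6.59 in WT neonates, a difference of -0.75 (SE 0.51). The highest DN-MCU neonate fell just short of the lowest WT neonate. Aldh1a2 read 8.61, 8.46 and 8.07 in DN-MCU neonates and 8.55, 8.87 and 8.83 in WT neonates. Its groups overlapped, and its difference was -0.37 (SE 0.30).

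Of the 3 transcription factors, only Bnc1 was lower without overlap. It read 6.00, 5.68 and 5.12 in DN-MCU neonates and 6.56, 7.26 and 6.24 in WT neonates, a difference of -1.08 (SE 0.44). Wt1 read 6.30, 6.13 and 6.68 in DN-MCU neonates and 6.17, 6.83 and 6.50 in WT neonates, and the difference was -0.13 (SE 0.40). Its groups overlapped over nearly their whole range. The brighter Tbx18 probe set lay between 9.74 and 10.21 in DN-MCU neonates and read 9.72, 10.15 and 9.83 in WT neonates. It differed by 0.09 (SE 0.30) and the other Tbx18 probe set by 0.22 (SE 0.27), again with overlap. Of the 13 probe sets, 4 had an unadjusted p under 0.05 (limma): both of Upk3b, Upk1b 1457065_at and Bnc1, where 2.39% of all tested probe sets did.

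Marker lists of other cells were read in the same neonatal hearts, and some also lay lower in DN-MCU neonates. Of 13 lists of other cells and of the retinoid pathway, 4 had no overlap between the genotypes and 9 overlapped. Of single probe sets, 5.13% were lower in DN-MCU neonates without overlap, but no such share was worked out for means of lists. The 8 markers themselves averaged 7.17 to 7.49 in DN-MCU neonates and 7.81 to 8.44 in WT neonates. The 6 atrial genes, all measured, averaged 10.17 to 11.43 in DN-MCU neonates and 11.51 to 11.83 in WT neonates. All 6 were negative, where 46.8% of all tested probe sets were, and none passed. An unadjusted p under 0.05 (limma) was reached by 5 of the 6, and by 2 of the 8 markers on their brightest probe sets, where 2.39% of all tested probe sets reached it. Sln, the atrial regulator of the calcium pump, read 11.37, 12.24 and 10.17 in DN-MCU neonates and 12.77, 13.36 and 12.72 in WT neonates. Its difference of -1.69 (SE 0.41, unadjusted p = 0.00187, limma) was larger than that of any marker. DN-MCU neonate 3 was thus lowest in atrial genes as well as in the markers described here. Of 6 erythroid genes, 2 were tested (Alas2 and Slc4a1), with a mean of 7.63 to 8.30 in DN-MCU neonates and 8.36 to 9.61 in WT neonates, while Hba-a1 stayed at 2.04 to 2.21 on all 12 arrays. The 7 macrophage genes averaged 6.62 to 6.75 in DN-MCU neonates and 6.86 to 7.05 in WT neonates, and none passed. Of 6 Schwann cell and nerve genes 3 were measured, and these averaged 4.0 to 4.17 in DN-MCU neonates and 4.18 to 4.28 in WT neonates. The genotypes were thus almost level at their nearest hearts in this list, and nearly so in the erythroid list.

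The 9 lists that overlapped held the retinoid, adipocyte, lung, thymus, general epithelial and smooth muscle genes and the 3 that follow. Fibroblast genes (9 of 9 measured) averaged 11.98 to 12.25 in DN-MCU neonates and 12.11 to 12.41 in WT neonates. Cardiomyocyte genes (8 of 8) averaged 14.64 to 14.71 in DN-MCU neonates and 14.69 to 14.73 in WT neonates. Endothelial genes (8 of 8) averaged 9.03 to 9.18 in DN-MCU neonates and 9.12 to 9.18 in WT neonates. The part of these other tissues in the neonatal differences was not tested.

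**Figure D3:**
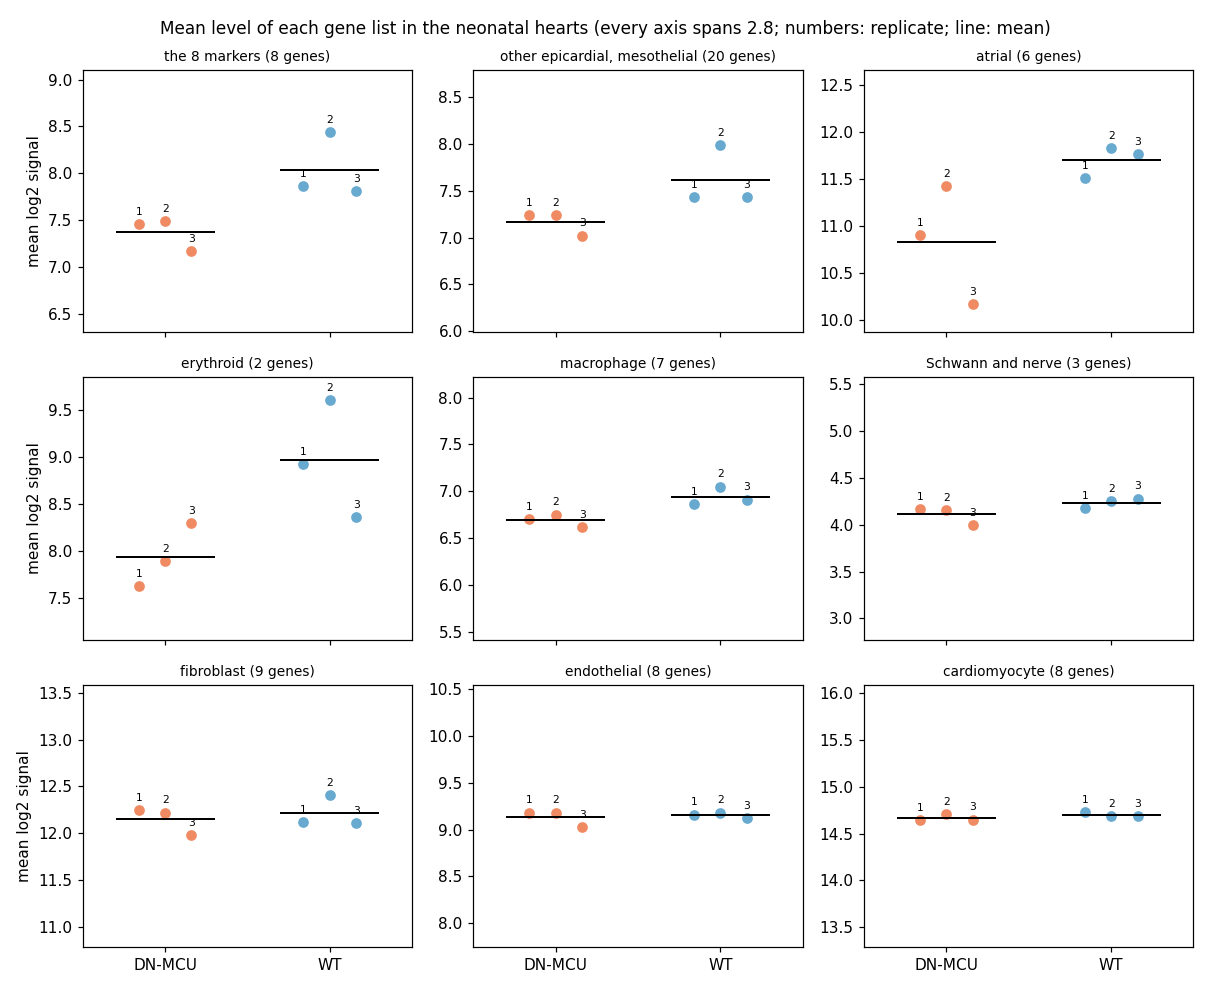
Mean log2 signal of the genes of each list (vertical axis, all spanning 2.8) in the DN-MCU and WT neonates (horizontal axis), with the replicate number beside each point and a line at the mean. The 8 markers, the other epicardial and mesothelial genes (7.02 to 7.24 in DN-MCU neonates and 7.43 to 7.99 in WT neonates) and the atrial, erythroid, macrophage and Schwann and nerve lists separate the genotypes. The Schwann and nerve list does so only narrowly, at 4.17 against 4.18, and the fibroblast, endothelial and cardiomyocyte lists overlap.

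The third comparison is between genotypes at 42 days. None of the 13 probe sets passed in adults either, where 4.77% of all tested probe sets did, and the smallest adjusted p was 0.254. Of the 13 differences, 10 were negative, and their median was -0.63, against -0.02 over all tested probe sets. A single WT heart stood far above the others. WT adult 1 exceeded the mean of the other WT adults by 2.53 for Msln, 2.15 for Krt19, 1.91 for Upk3b, 1.75 for Upk1b, 1.69 for Bnc1, 1.01 for Wt1 and 0.77 for Aldh1a2, while for Tbx18 it was lower by -0.33 on the brighter probe set and 0.64 higher on the other.

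Upk3b read 7.85, 8.23 and 8.47 in DN-MCU adults and 10.32, 7.99 and 8.83 in WT adults on its brighter probe set. The groups overlapped, and the difference of -0.86 (SE 0.50, adjusted p = 0.421) became -0.23 without WT adult 1. The largest of the 13 differences was that of Upk1b 1435831_at, at -1.29 (SE 0.64, adjusted p = 0.324), which became -0.39 without that heart. Msln read 4.64, 3.90 and 4.97 in DN-MCU adults and 6.27, 3.57 and 3.90 in WT adults. Its difference was -0.08 (SE 0.59) with WT adult 1 and 0.77 without it. Krt19 likewise changed sign, with -0.42 (SE 0.51) with that heart and 0.30 without it.

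Bnc1 was the only member with no overlap in adults, at 2.99, 3.36 and 3.42 in DN-MCU adults and 5.26, 3.58 and 3.56 in WT adults, where 8.46% of all tested probe sets were lower without overlap. All but 1 of these values lie near the filter level. Its difference of -0.88 (SE 0.44, adjusted p = 0.339) became -0.31 without WT adult 1. Aldh1a2 read 5.67, 5.81 and 6.69 in DN-MCU adults and 7.27, 6.68 and 6.32 in WT adults. The difference was -0.70 (SE 0.30, adjusted p = 0.254), and without DN-MCU adult 3 it was -1.02 with an adjusted p of 0.0403. Wt1 differed by -0.26 (SE 0.40) and Tbx18 by 0.08 (SE 0.30) and 0.36 (SE 0.27), and neither passed. An unadjusted p under 0.05 (limma) was reached by 2 of 13 probe sets, Upk1b 1457065_at and Aldh1a2, where 18.2% of all tested probe sets reached it.

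Whether the construct acted differently at 42 days and at 1 day was tested as the adult effect minus the neonatal effect. None of the 13 passed, where 0.786% of all tested probe sets did, and none had an unadjusted p under 0.05, where 9.22% of all tested did (limma). The differences between effects ran from -0.33 for Aldh1a2 to 0.78 for Msln, and their adjusted p from 0.758 to 0.999. The SE of these values was 0.38 to 0.90.

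Whether the markers rise and fall together was asked within each age, because the ages form separate clusters of hearts. Among the 6 neonatal hearts 4 of the 8, Upk3b, Upk1b, Bnc1 and Msln, did so most closely. Of the 28 pairs of genes, 23 had a positive Pearson correlation (r), and the median was 0.74. The exact permutation test, with p-values adjusted over 56 pairs of both ages, passed 7 pairs. These were all 6 pairs among Upk3b, Upk1b, Bnc1 and Msln, with r between 0.97 and 0.99 and adjusted p between 0.0259 and 0.0333, and the pair of Upk1b and Krt19 (r = 0.93, Spearman's rho = 1.00, adjusted exact p = 0.0259). By Spearman's rank correlation 4 of the 28 passed: the 3 pairs among Upk3b, Bnc1 and Msln, and Upk1b with Krt19. This test treats the 6 hearts as interchangeable, although they are of 2 genotypes. With the group means removed the median r of the 28 pairs was 0.53, and that of the 7 pairs lay between 0.82 and 0.98. Permuted within genotype alone, an alternative chosen after seeing the data, 0 of 28 passed and 4 had an unadjusted p under 0.05; the exact permutation p cannot go below 0.0278 there, and the smallest adjusted p was 0.222.

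The tightest pair was Upk3b with Bnc1, a membrane protein and a transcription factor. Their r was 0.99 and rho 1.00 over the 6 neonates, with exact permutation p = 0.00278 for each. Without the 2 hearts farthest from the median, DN-MCU neonate 3 and WT neonate 2, r was 0.94. Since both genes were lower in DN-MCU neonates, part of such an r is the gap between genotypes, and the correlation of deviations from group means was 0.98. For Upk3b with Msln the values were r = 0.98, rho = 1.00, an exact permutation p of 0.00139, which is the smallest that 6 hearts allow, 0.98 without the 2 farthest hearts, and 0.93 for deviations from group means. The lowest r without the 2 farthest hearts among the 7 passing pairs was 0.74, for Upk1b with Krt19.

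No pair of Wt1 or Tbx18 with another marker passed among the neonates. Their r with the other 6 genes lay between -0.37 and 0.30 in neonates, and between them it was 0.70 (rho = 0.60, adjusted exact permutation p = 0.256), which became -0.25 without the 2 farthest hearts. DN-MCU neonate 3 shows the split within a single heart. Relative to the other DN-MCU neonates it was lower by -0.80 for Upk3b, -0.72 for Bnc1 and -0.58 for Upk1b, while Wt1 was 0.47 and Tbx18 0.34 higher. In WT neonate 2, by contrast, all 8 genes were above the other WT neonates, from 0.18 for Aldh1a2 to 0.90 for Upk1b.

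**Figure D4:**
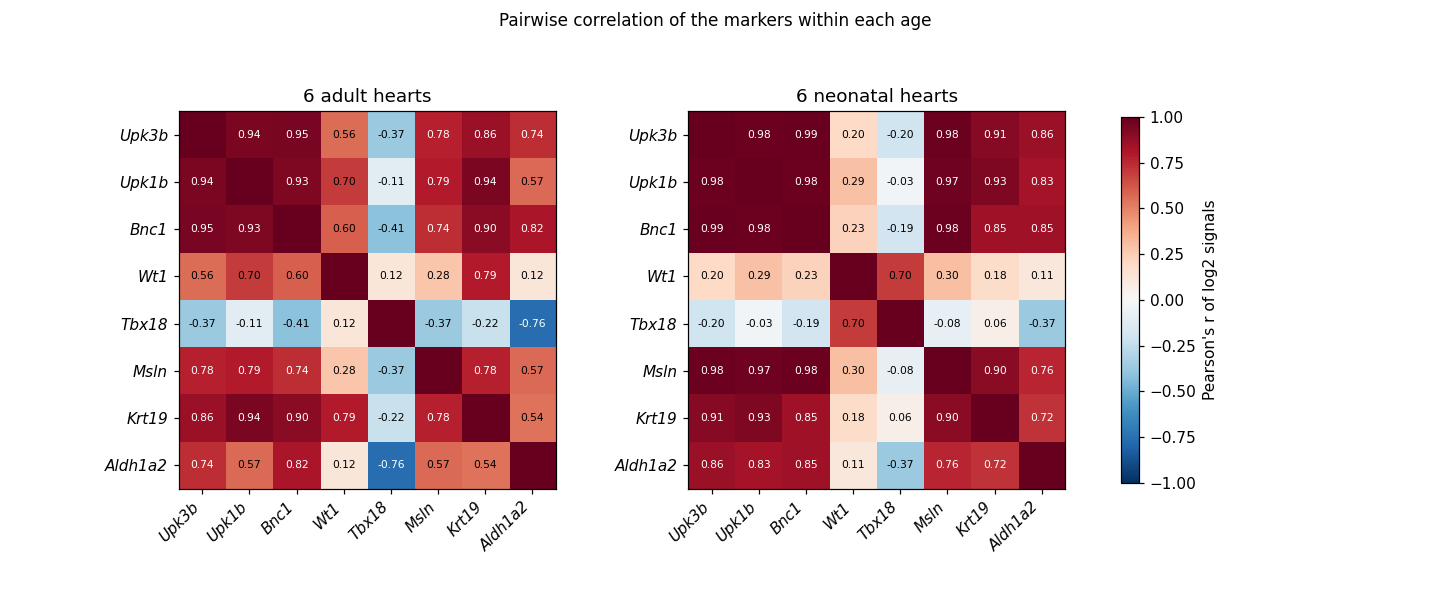
Pearson's r between each pair of the 8 markers over the 6 adult hearts and over the 6 neonatal hearts, with the value printed in each cell and the colour scale from -1 to 1. Among neonates Upk3b, Upk1b, Bnc1 and Msln reach 0.97 to 0.99 with each other, and Wt1 and Tbx18 stay between -0.37 and 0.30 with the other 6 genes.

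Aldh1a2 lay between these sets. Its r in neonates was 0.86 with Upk3b, 0.85 with Bnc1, 0.83 with Upk1b, 0.76 with Msln and 0.72 with Krt19, with adjusted exact permutation p between 0.144 and 0.196, and none of these pairs passed. As a description of how common such values are, Upk3b had an r above 0.8 with 5 of the other 7 members and with 2.8% of 24163 other probe sets. Wt1 and Tbx18 had an r above 0.8 with 0 of 7 members, and with 2.58% and 3.3% of the other probe sets. With group means removed, such values were more common over the array. Upk3b then had an r above 0.8 with 3 of 7 members and with 9.87% of other probe sets. For Upk1b, Bnc1 and Msln these were 4, 3 and 3 of 7 members, and 10.9%, 8.53% and 9.3% of other probe sets.

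Among the 6 adult hearts the median r was 0.65 and 22 of 28 pairs were positive. No pair passed the exact permutation test (smallest adjusted p = 0.0583, Bnc1 with Aldh1a2, r = 0.82, rho = 0.83), and the median rho was 0.23. The adult correlations rest on WT adult 1: without it the median r was -0.07. Upk3b with Bnc1 had r = 0.95 over the 6 adults and 0.08 without WT adult 1 and DN-MCU adult 1, the 2 hearts farthest from the Upk3b median. Tbx18 again stood apart on its brighter probe set, with r between -0.76 and 0.12 with the other 7 genes. Its other probe set was not correlated with them, and in WT adult 1 the brighter probe set deviated from its group mean by -0.22 and the other by 0.43. Wt1 did not stand apart in adults, with r between 0.12 and 0.79 with the other 7 genes (median 0.56).

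Over all 12 hearts, each gene's deviation from its group mean was set against the mean deviation of the other 7 genes. This describes the variation that is left once group means are removed, and WT adult 1 deviates most in it. Upk1b, Bnc1, Upk3b and Krt19 followed the rest most closely. The r was 0.97 for Upk1b, 0.93 for Bnc1, 0.92 for Upk3b and 0.92 for Krt19, and without WT adult 1 it was 0.94, 0.78, 0.76 and 0.64. The other 4 genes followed less or mainly through that heart. For Msln it was 0.83, and 0.25 without that heart. The remaining adult signals of Msln were dim, at 3.57 to 4.97, but those of Bnc1 were dimmer, at 2.99 to 3.58. The part of dim signals in these values was not tested. Aldh1a2 had 0.48 and Wt1 0.50, and both were near 0 without WT adult 1, at -0.01 and 0.05. Tbx18, on its brighter probe set, had -0.25, and -0.07 without WT adult 1.

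**Figure D5:**
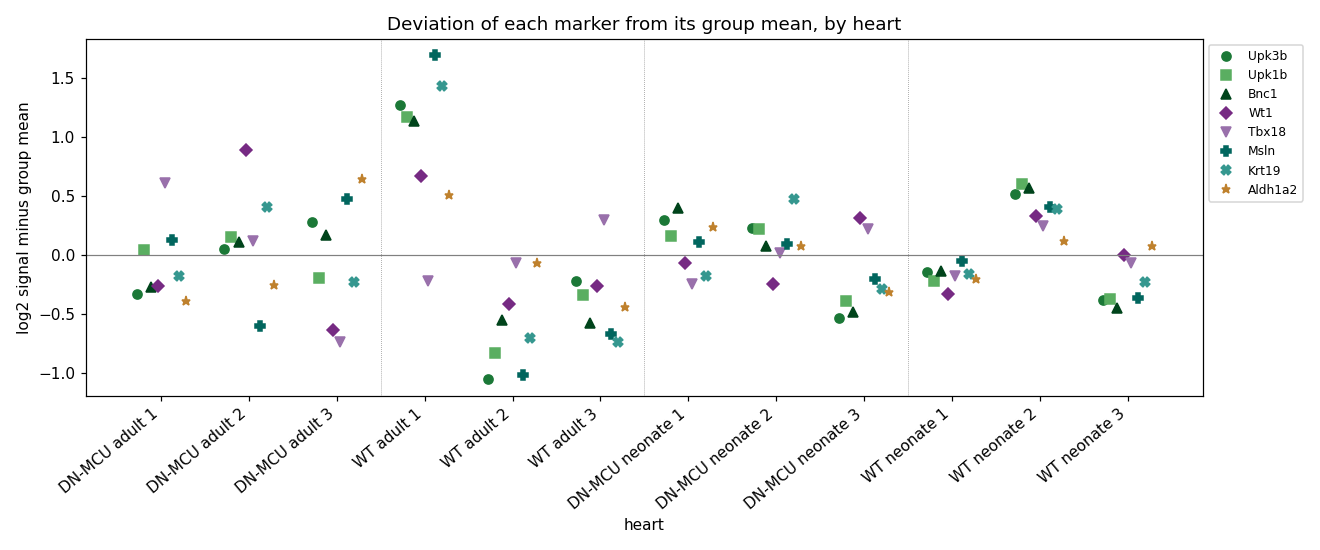
Deviation of each marker's log2 signal from its group mean (vertical axis) in the 12 hearts (horizontal axis), 1 symbol per gene. WT neonate 2 stands above 0 for all 8 markers and WT adult 1 for all but Tbx18, and in DN-MCU neonate 3 Wt1 and Tbx18 lie above 0 while the other 6 genes lie below it.

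Probe sets of the same gene give a check on these patterns. Deviations from group means of the 2 Upk3b probe sets correlated at 0.98 over the 12 hearts. For Upk1b, 1435831_at and 1455464_x_at correlated at 0.95, while 1439760_x_at had 0.47 to 0.54 with the other 3. The 2 Tbx18 probe sets correlated at 0.98 over all values, which include the age difference, and at 0.28 in deviations from group means. That 0.28 pools the ages. Among neonates the deviations of both Tbx18 probe sets ran alike, such as 0.25 and 0.19 in WT neonate 2 and 0.22 and 0.17 in DN-MCU neonate 3. In DN-MCU neonate 2 both were near 0, at 0.02 and -0.04. Adults were mixed, with 0.61 and 0.57 in DN-MCU adult 1 but -0.22 and 0.43 in WT adult 1.

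The genes most like the 8 markers were sought among 11799 other genes, by the correlation of their deviations from group means with the mean deviation of the markers over the 12 hearts. The 10 highest were Pla2g4e (r = 0.97), Igfbp6 (0.96), Lrrn4 (0.94), Dipk1a (0.94), Epha2 (0.94), Gins3 (0.94), Acly (0.94), Tmem158 (0.94), Cachd1 (0.93) and Pdpn (0.92). Lrrn4 and Pdpn (podoplanin) are known mesothelial genes and were on the list of other markers. Without WT adult 1 their r was 0.82 and 0.78. That of Igfbp6, a binding protein of insulin-like growth factors, was then 0.87, that of Pla2g4e 0.85, and that of Gins3 and Acly 0.83 each. It was lower for Dipk1a (0.76), Epha2 (0.65), Tmem158 (0.63) and Cachd1 (0.61). Igfbp6 read 6.29, 6.16 and 5.94 in DN-MCU neonates and 7.27, 7.57 and 7.0 in WT neonates, a difference of -1.15. Pla2g4e, Gins3 and Acly differed by -0.21, 0.36 and 0.19 between the neonatal genotypes, so for these 3 genes a close fit over the 12 hearts did not go with a neonatal difference like that of the markers.

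A list of 25 further epicardial and mesothelial genes had 20 measured. Between DN-MCU and WT neonates none passed, 16 of 20 differences were negative (46.8% of all tested probe sets were), and the median was -0.42, against 0.01 over all tested. For 7 of the 20 the genotypes did not overlap and DN-MCU neonates were lower, where 5.13% of all tested probe sets were: Dmkn (-1.13, SE 0.35), Muc16 (-0.85), Gpm6a (-0.81), Krt7 (-0.79), Lrrn4 (-0.76), Sema3d (-0.59) and Sulf1 (-0.28). Dmkn, which encodes the secreted epithelial protein dermokine, read 4.98, 5.42 and 5.13 in DN-MCU neonates and 5.83, 6.97 and 6.11 in WT neonates. Ezr, Scx, Cdh3 and Podxl had positive differences, of 0.07 to 0.17.

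Between ages, 10 of these 20 genes fell in WT adults, 2 rose and 8 did not pass, where 24.4% of all tested probe sets fell and 20.6% rose. The falls numbered 14 without WT adult 1, 15 with array weights and 8 at the fewest over the 13 alternatives that measured all 20. Those with the smallest p among the falls were Dmkn (-3.48, adjusted p = 2.23e-05), Tcf21 (-1.63, adjusted p = 0.000121), Sulf1 (-1.16, adjusted p = 0.000386) and Krt7 (-2.83, adjusted p = 0.000511). Dmkn read 3.2, 2.1 and 3.15 in WT adults, all below the filter level of 3.355. The size of its fall therefore rests on dim adult signals. Tcf21 encodes a transcription factor of epicardial cells and of the fibroblasts derived from them. Aldh1a1, another retinaldehyde dehydrogenase, rose by 3.13 (SE 0.37, adjusted p = 7.33e-05), opposite to Aldh1a2. Podxl (podocalyxin), which endothelial cells also make, rose by 1.46 (SE 0.18, adjusted p = 9.79e-05).

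In adults 1 of the 20 passed between genotypes, a share close to the 4.77% of all tested probe sets. Krt18, a keratin of simple epithelia, read 9.77, 8.13 and 8.25 in DN-MCU adults and 6.14, 5.55 and 4.83 in WT adults. It rose by 3.21 (SE 0.43, adjusted p = 0.00202), with no overlap, while 10 of the 13 probe sets of the 8 markers had negative differences. In neonates Krt18 read 7.05, 7.46 and 7.43 in DN-MCU hearts and 7.53, 7.65 and 7.34 in WT hearts, and it did not pass. The adult effect exceeded the neonatal effect by 3.41 (SE 0.60, limma, adjusted p = 0.0331). With the replicate number as a block in neonates the adjusted p was 0.118, and without 1 heart it ran from 0.0165 to 0.111. The call was lost without WT adult 2, WT adult 3 or any single neonatal heart, and with no filter on low signals. Fitted to the adult arrays alone, the adult difference had an adjusted p of 0.0946. Krt8, the usual partner of Krt18 in simple epithelia, read 7.0, 4.89 and 4.47 in DN-MCU adults and 5.0, 3.65 and 3.61 in WT adults, with overlapping groups, and Krt19 differed by -0.42 in adults as given above.

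Aldh1a2 makes the ligand of the retinoic acid pathway, and 9 of 16 listed genes of that pathway were measured. None passed between genotypes at either age, but Rxrg was lower in DN-MCU adults with array weights (-1.23, adjusted p = 0.0271) and without DN-MCU adult 3 (-1.31, adjusted p = 0.00638). Between ages 4 rose in WT adults and none fell, where 20.6% of all tested probe sets rose and 24.4% fell; over the 13 alternatives that measured all 9 genes, 3 to 5 rose: Rxrg, a retinoid X receptor, by 5.87 (adjusted p = 9.62e-07), Rbp4, the retinol carrier, by 3.31 (adjusted p = 5.25e-05), Dhrs3, which reduces retinaldehyde to retinol, by 2.35 (adjusted p = 5.99e-06), and Rarg, a retinoic acid receptor, by 0.61 (adjusted p = 0.0311, and 0.0629 with the replicate number as a block in neonates). The WT neonate means of Rxrg and Rbp4 were 2.89 and 3.15, below the filter level of 3.355. The sizes of their rises therefore rest on dim neonatal signals. Aldh1a2 itself fell, as did the other 6 markers that passed.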

How the data were processed

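Total RNA of 12 whole mouse hearts (500 ng each) was read on Affymetrix 3′ arrays, as the labels' protocols state. The authors deposited log2 signals in a single table, comparable between arrays; that the scale is log2 follows from the values. The sources used here do not give the normalization, and Partek, without version or role, is in the submitters' processing notes. Probe sets were named through the platform annotation (34945 with 1 gene, 932 with several, 9160 with none), and the gene IDs of the 13 probe sets described matched the reference gene table with 0 symbols changed. The number of arrays limits the precision.

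Removing 64 control probe sets and those with dim signals left 24176. The model, fitted with limma (3.58.1, R 4.3.3), had the 4 group means of 12 arrays, no replicate block and no further normalization. P-values were adjusted (Benjamini-Hochberg) over all 24176, and passing means an adjusted p under 0.05. Where 1 probe set stands for a gene, it has the gene's highest mean over all arrays. Values after ± are SD. The fit was tested on simulated data. Pairs of markers were correlated within each age with exact permutation tests.

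The members, lists and tests were chosen with earlier results of these data known. Every probe set of every member is named. Of each other list, the members that passed are named, at most the 4 with the smallest p per comparison. Krt8, Sln, Ucp1, Adipoq, Scgb1a1, the thymocyte, surfactant and erythroid genes, and list members without overlap or with positive differences were named after their values were seen. Some listed marker genes were not analysed here.

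As a check of pairing, deviations from group means were correlated between same-numbered DN-MCU and WT arrays over all tested probe sets. These were 0.133, 0.223 and 0.283 in neonates, taken as paired, and -0.381, 0.41 and -0.428 in adults, taken as not paired. No label explains the numbers. The main fit and the permutation tests did not use the neonatal pairing, which entered only the alternatives with a replicate block. Alternatives tried were no filter, a stricter filter (7.254), quantile normalization, subtraction of array medians, array weights, a replicate block, fitting only the arrays compared, leaving out each array in turn, and, for correlations, ranks, deviations from group means or, added after seeing the data, permutation within genotype. Promoter windows and their motif matches were read from a RefSeq table of build GRCm38.p6.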

Additional observations from a re-analysis of the deposited data

Results flagged for a closer look

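Krt18, a keratin of simple epithelia on the list of other epicardial and mesothelial genes, differed in its genotype effect between the ages. It was higher by 3.21 in DN-MCU adults than in WT adults and lower by -0.19 in DN-MCU neonates than in WT neonates, and the adult effect minus the neonatal effect was 3.41 (limma, adjusted p = 0.0331). All 3 DN-MCU adults lay above all 3 WT adults. The call did not hold with the replicate number as a block in neonates (limma, adjusted p = 0.118) or with no filter on low signals. It was also lost without WT adult 2, without WT adult 3, and without any single neonatal heart. None of the 13 probe sets of the 8 markers had such a difference of effects, and groups of 3 hearts were not searched for outlying hearts.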

How the results depend on the processing

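No member passed between DN-MCU and WT neonates, and none passed in the difference of effects, under any alternative run; in adults 0 to 1 passed when a heart was left out (Aldh1a2, without DN-MCU adult 3) and 0 otherwise. Counts over all probe sets moved more, and the cause was not tested. For adults (1152) they were 2036 with array weights, 636 with the replicate block in neonates, 568 with the replicate block in each age, 112 with only the adult arrays fitted, and 619 to 2214 without 1 heart. For neonates (4) they were 2 with the stricter filter, 2 with quantile normalization, 1 with array medians subtracted, 95 with array weights, 0 with the replicate block of either kind, 1 with only the neonatal arrays fitted, and 0 to 12 without 1 heart. For the difference of effects (190) they were 1216 with array weights, 71 and 39 with the replicate block in neonates and in each age, and 70 to 636 without 1 heart. Between WT ages the stricter filter left 7 member probe sets, of which 5 passed, and 6650 passed in all; without 1 heart 9 to 13 member probe sets passed. The replicate block in neonates changed no other call of a member than that of Upk1b 1457065_at given above, and the block in each age changed that of Upk1b 1439760_x_at (adjusted p = 0.0524); each left 10 member probe sets passing. Median r was 0.23 by ranks in adults and -0.07 to 0.76 without 1 heart; in neonates it was 0.53 for deviations from group means and 0.63 to 0.84 without 1 heart, and 7 pairs passed there, 4 by ranks and 0 when permuted within genotype.

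Signs turned for small differences, none of which passed. In adults array weights gave 0.28 for Wt1, 0.41 for Msln and 0.23 for Krt19, and leaving out 1 heart gave -0.71 to 0.08 for Wt1, -0.58 to 0.77 for Msln, -0.78 to 0.30 for Krt19, -0.22 to 0.45 for Tbx18 1429974_at and -0.21 to 0.49 for Upk1b 1439760_x_at. In neonates it gave -0.30 to 0.04 for Wt1 and -0.03 to 0.21 for Tbx18 1429974_at. For the difference of effects quantile normalization gave 0.05 for Tbx18 1429974_at, and array weights gave 0.57 for Upk1b 1435831_at, 0.37 for Wt1 and 0.27 for Tbx18 1429974_at. Leaving out 1 heart gave -0.19 to 1.22 and -0.08 to 1.08 for Upk3b, -0.80 to 0.63, -0.15 to 0.85 and -0.14 to 0.69 for Upk1b 1435831_at, 1455464_x_at and 1457065_at, -0.08 to 0.77 for Bnc1, -0.58 to 0.21 for Wt1, -0.31 to 0.36 and -0.13 to 0.41 for Tbx18, and -0.03 to 1.05 for Krt19.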

Other observations

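Genes of neighbouring tissues were read in the adult hearts beside the surface markers. Scgb1a1, the secretoglobin of airway club cells, read 11.25, 12.27 and 4.27 in DN-MCU adults and 11.77, 13.11 and 8.21 in WT adults, against 3.47 to 3.86 in all 6 neonates, while the surfactant genes Sftpa1, Sftpb, Sftpc and Sftpd stayed between 1.95 and 3.00 on all 12 arrays. Adipoq, the adipocyte hormone adiponectin, read 10.52, 11.57 and 8.64 in DN-MCU adults and 11.39, 9.96 and 10.55 in WT adults, against 2.13 to 2.54 in neonates. Ucp1, the uncoupling protein of brown fat, read 9.86, 10.72 and 2.36 in DN-MCU adults and 9.89, 7.11 and 7.77 in WT adults. DN-MCU adult 2 was the highest adult for both fat genes, while WT adult 1 was the highest for 7 of the 8 markers. The thymocyte genes Cd8b1, Dntt and Cd3g read 8.61, 8.0 and 7.73 in DN-MCU adult 1 and 2.27 to 3.24 on the other 11 arrays.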
